A study of Ovis aries with 6 samples.

Results

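Mitochondrial ribosomal proteins, the proteins of the ribosome that works inside mitochondria, were followed in the choroid plexus of ewes through 74 genes of the 33609 listed. The genes were taken by symbol (MRPL or MRPS followed by a number and, in some, a letter A to C) with a mean of at least 1 CPM (read counts scaled to the size of each library) over the 6 pools. Of 75 matching symbols, MRPS26 was left out, since no pool held more than 1 count of it. All 74 also passed the filter on low counts that left 18019 genes to be tested. The choroid plexus, the tissue that secretes cerebrospinal fluid, came from control ewes kept in short days (Short), control ewes kept in long days (Long) and thyroidectomised ewes kept in long days (THX). The study gives 24 ewes in all but 8 per group and 7 in THX, which do not add up to that total. Their RNA was mixed in equal amounts into 2 pools per group of 3 to 4 ewes each. The labels name no breed or age.

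Mitochondria carry a small genome of their own, and a dedicated ribosome translates its messenger RNAs into core subunits of the respiratory chain and the ATP synthase. The RNA of that ribosome is encoded in mitochondria, but its proteins are encoded in the nucleus, made in the cytosol and imported. The large subunit (mostly MRPL symbols) joins amino acids and holds the exit tunnel, and the small subunit (mostly MRPS symbols) reads the message. Many of these proteins descend from bacterial ribosomal proteins and others were added in the mitochondrial lineage. The choroid plexus epithelium is rich in mitochondria, which supply the ATP for ion pumping and fluid secretion.

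Of the 74 genes, 50 encode proteins of the large subunit and 23 of the small subunit. The symbols do not follow this division throughout: MRPS18A and MRPS30 encode proteins that sit in the large subunit. MRPS36 is named as a ribosomal protein but is known as a part of the 2-oxoglutarate dehydrogenase complex, and it was counted in neither subunit. Descendants of bacterial proteins numbered 45 and mitochondria-specific proteins 27. MRPS36 and MRPS28 were put in neither class.

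Total counts per pool ran from 48282883 to 82100653, and the 74 genes together held 136028 to 221111 of these, or 0.269% to 0.305% of a pool. Single members had 117 to 29189 counts per pool, and outside MRPL57 none had under 347. When all tested genes were reduced to principal components, THX pool 2 and Short pool 1 lay at opposite ends of the first component (42.7 and −38.4) and THX pool 1 at the end of the second (−47.8). Counts or medians of the whole set are therefore also given without those pools, and values of single members for some only. CPM values are scaled by TMM factors, which correct library totals for a few genes that take many reads, and levels are the mean ± SD of 2 pools. Nothing in the labels ties a pool to an extraction or sequencing batch, and since ewes were pooled, the p-values rest on how much pools vary rather than single animals.

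In all 6 pools the epithelial markers were high: the hormone carrier TTR lay between 86400 and 140700 CPM and the potassium channel KCNJ13 between 622 and 968 CPM. PRLR, also chosen as an epithelial marker, had no row under that symbol. The other 9 were all tested. Their sum, mostly TTR, was 93730 and 99440 CPM in Short, 114100 and 115900 in Long and 124500 and 146400 in THX pools. Most of the list did not follow TTR: 6 of the 9 were below 0 in THX minus Short (51% of all tested genes). The serotonin receptor HTR2C and KL (klotho) passed edgeR's test there (log2 differences −1.391 and −0.845), where 0.916% of all tested genes passed. The list's median centred log2 level was 0.064 and 0.071 in Short, 0.027 and 0.020 in Long and −0.049 and −0.083 in THX pools. Of the markers of other cell types, the 6 fibroblast markers summed to 657 to 846 CPM in Short, 735 to 806 in Long and 441 to 582 in THX pools, and the 6 endothelial markers to 553 to 682, 570 to 620 and 588 to 600 CPM. All 6 fibroblast markers were below 0 in THX minus Long and in THX minus Short (49.7% and 51% of all tested genes), with medians of −0.55 and −0.56. Of them LUM passed edgeR's test in both (adjusted p = 0.0314 and 0.0351), where 0.283% and 0.916% of all tested genes passed. The 5 macrophage markers found (C1QB and CD163 had no row) summed to 167 to 201 CPM in Short, 217 to 228 in Long and 186 to 197 in THX pools. Anterior pituitary markers (4 of 5 listed) summed to 24.0 and 113 CPM in Long, 62.1 and 184 in Short and 220 and 670 in THX pools. Pericyte and smooth muscle markers were below 0 in 5 of 6 in Long minus Short (50.3% of all tested genes), with a median of −0.21. In 4 of the 6 Long lay below Short without overlap, where 26.8% of all tested genes had that order. The sum of these 6 markers was 1047 and 1339 CPM in Short, 1028 and 996 in Long and 845 and 991 in THX pools. The 5 ependymal markers were all above 0 in THX minus Long, where 50.3% of all tested genes were (sums of 609 and 674 CPM in THX, 491 and 553 in Long). The 5 oligodendrocyte markers were all below 0 in THX minus Short, where 51% of all tested genes were (40.8 and 43.6 CPM against 57.6 and 63.7). The part of these cell types in the results on the 74 genes was not tested. In such bulk tissue, fewer cells of a type and less RNA per cell cannot be told apart.

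The 74 genes were measured at mean levels of 2.25 (MRPL57) to 359 CPM (MRPS6), with a median of 27.8 CPM. These CPM are not scaled to transcript length, so they give how many reads a gene took and do not rank the genes by RNA molecules. MRPS6, MRPL49 and MRPL37 were the 3 with at least 100 CPM, followed by MRPS21 and MRPS2, and MRPL48, MRPS18C and MRPL57 were the 3 lowest. MRPS6 (identifier 101120370), which encodes a small subunit protein, had 293 and 316 CPM in Short, 381 and 370 in Long and 353 and 440 in THX pools. The 2 Short pools were the lowest and THX pool 2 the highest. In the sheep reference annotation ARS-UI_Ramb_v3.0 the gene overlaps SLC5A3, the myo-inositol transporter of this epithelium. SLC5A3 had 1225 and 991 CPM in Short, 863 and 786 in Long and 1000 and 846 in THX pools, so it was highest in a pool where MRPS6 was lowest. Whether reads of one were counted to the other was not tested.

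**Figure D1:**
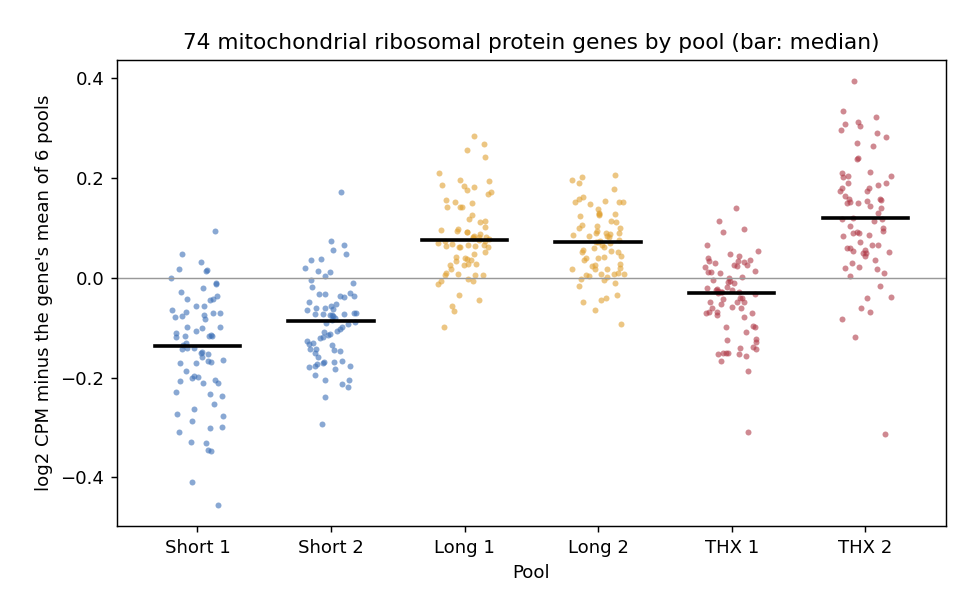
Each point is 1 of the 74 genes in 1 pool, as log2 CPM minus the gene's own mean over the 6 pools (vertical axis), and black bars are medians. The medians are −0.137 and −0.086 for Short, 0.075 and 0.071 for Long and −0.029 and 0.119 for THX, so the Short pools sit lowest and the THX pools lie apart from each other.

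The genes tended to be low or high in the same pools. Their summed level was 2662 ± 66.7 CPM in Short, 3041 ± 10.9 in Long and 3014 ± 274 CPM in THX pools (n = 2 each). Pool by pool it was 2615 and 2709 CPM in Short, 3049 and 3033 in Long and 2821 and 3208 in THX. The Short pools were below each of the other 4, the Long pools were nearly equal, and the THX pools lay on either side of the Long pools. Both Short pools were below all 4 others in 39 of the 74 genes, or 52.7%, where 16.6% of all tested genes had that order, and above all 4 others in 1 (16.2% of all tested genes). Short pool 1 was the lowest of the 6 for 35 members (47.3%, against 24.1% of all tested genes) and THX pool 2 the highest for 39 (52.7%, against 24.5%).

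Long against Short pools compares day length in ewes with an intact thyroid. The genes were higher in Long pools almost throughout: 73 of 74 had a log2 difference above 0, where 49.7% of all tested genes did, and 1 was below 0 (50.3% of all tested genes). The median log2 difference was 0.19, a fold of 1.14, beside −0.003 over all tested genes. No member passed the quasi-likelihood test of edgeR at an adjusted p under 0.05, and neither did any gene of the 18019 (0%). At an unadjusted p under 0.05, 19 members were higher and 0 lower (25.7% of members, where of all tested genes 6.47% were higher and 7.33% lower, 13.8% together). The groups did not overlap, with Long above Short, in 58 members (78.4%, where 26.7% of all tested genes had that order), and 1 lay the other way (26.8% of all tested genes). DESeq2 and limma-voom also called 0 members, where they called 0.927% and 0% of all genes. The number higher at an unadjusted p under 0.05 was 4 without Short pool 1 (5.41% of members, 1.96% of all genes) and 14 without Short pool 2 (18.9% and 5.75%). It was 6 without Long pool 1 (8.11% and 1.94%) and 4 without Long pool 2 (5.41% and 2.69%). Without THX pool 1 and THX pool 2, which enter only through the shared spread, it was 30 (40.5% and 9.85%) and 31 (41.9% and 9.81%). Members above 0 numbered 70 to 73 over these fits and 66 with library totals in place of TMM factors.

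**Figure D2:**
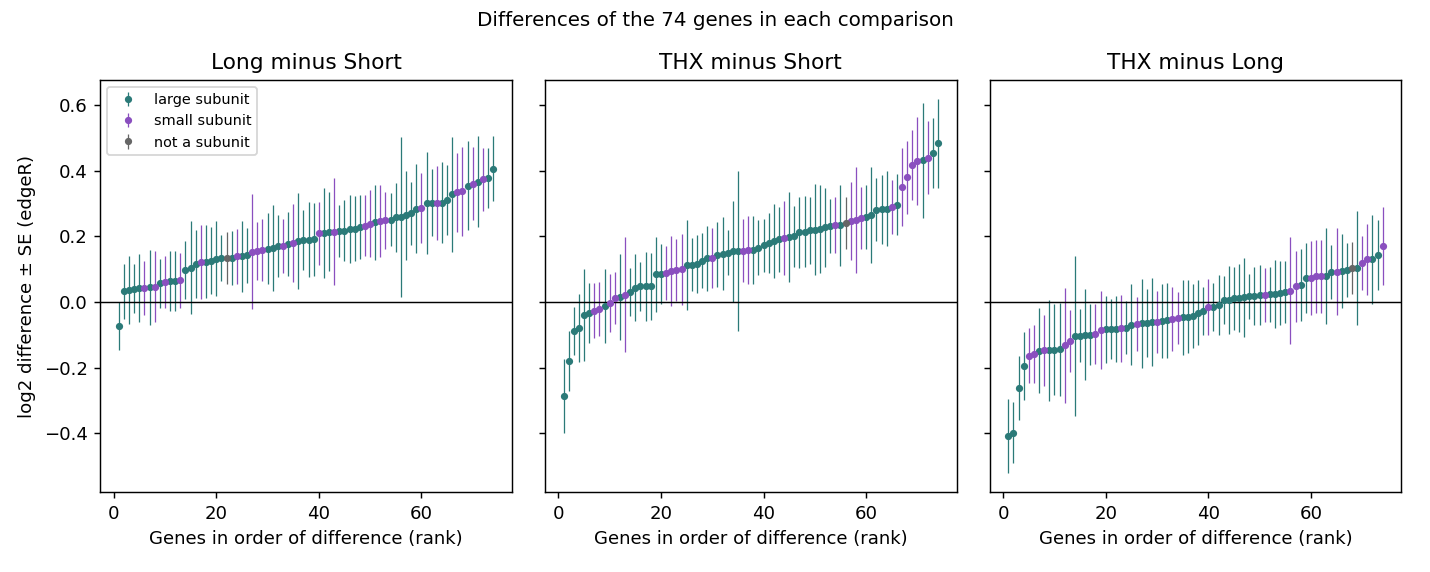
Log2 differences with their SE from edgeR (vertical axis) for the 74 genes, ordered within each panel (horizontal axis), with large subunit genes in green, small subunit genes in purple and MRPS36 in grey. In Long minus Short 73 points are above 0, in THX minus Short 64 and in THX minus Long 32.

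The difference was spread over both subunits and over the parts of the ribosome. All 23 small subunit genes (median log2 difference 0.21, 19 without overlap) and 49 of 50 large subunit genes (median 0.19, 38 without overlap) were above 0 in Long minus Short. Of all tested genes 49.7% were above 0 and 26.7% had Long above Short without overlap. All 45 descendants of bacterial proteins were above 0 (median 0.21), as were 26 of the 27 mitochondria-specific ones (median 0.16), and a difference between the classes was not tested. Only some members were assigned a site, and the lists by site may not be complete. Among large subunit genes, the 3 assigned to the stalk that recruits translation factors (MRPL10, MRPL11 and MRPL12) had a median of 0.30. The 5 assigned to the central protuberance (MRPL18, MRPL38, MRPL40, MRPL46 and MRPL48) had a median of 0.22. The 7 assigned to the tunnel exit (MRPL17, MRPL22, MRPL23, MRPL24, MRPL44, MRPL45 and MRPL47) had a median of 0.19. The 5 assigned to the surroundings of the catalytic centre (MRPL2, MRPL3, MRPL4, MRPL16 and MRPL27) had a median of 0.12. Long lay above Short without overlap in 3 stalk, 4 protuberance and 6 tunnel exit genes, and in 2 around the catalytic centre. In the small subunit, 6 genes of the decoding site and message path (MRPS5, MRPS7, MRPS9, MRPS11, MRPS12 and MRPS18C) had a median of 0.19, with 5 without overlap. Each site holds too few genes to set its count against the 26.7% of all tested genes.

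MRPL55 (identifier 101103231), which encodes a large subunit protein, had the lowest p in this comparison. It had 20.5 and 20.9 CPM in Short, 27.8 and 27.1 in Long and 21.4 and 24.4 CPM in THX pools. The Long pools stood above all others and the THX pools lay between the groups (Long minus Short, log2 difference 0.41, SE 0.099, adjusted p = 0.342 by edgeR). Over the alternatives its adjusted p ran from 0.0576 to 0.871. Its gene overlaps GUK1, a guanylate kinase gene, in the sheep annotation. GUK1 had 183 and 194 CPM in Short, 207 and 234 in Long and 205.5 and 230 in THX pools. The Short pools were thus the lowest for both genes (GUK1, Long minus Short, log2 difference 0.23). Whether reads of GUK1 were counted to MRPL55 was not tested. MRPL18 (identifier 101111291), of the central protuberance, had 21.4 and 22.8 CPM in Short, 28.7 in both Long pools and 25.8 and 28.4 in THX pools. Here both Short pools were below the other 4 (log2 difference 0.38, SE 0.092, adjusted p = 0.342 by edgeR). MRPS11 (identifier 101122631), of the message path of the small subunit, had 18.3 and 18.1 CPM in Short, 23.4 and 23.8 in Long and 20.6 and 22.9 in THX pools. The order was the same as for MRPL18 (log2 difference 0.37, SE 0.095, adjusted p = 0.342 by edgeR).

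MRPS34 (identifier 101110811), a mitochondria-specific protein needed for small subunit stability, had 38.6 and 37.1 CPM in Short, 48.1 and 49.2 in Long and 45.8 and 56.9 in THX pools. Both Short pools were again the lowest (log2 difference 0.36, SE 0.11, adjusted p = 0.342 by edgeR). In the sheep annotation its gene overlaps EME2, a DNA repair gene, which had 114 to 126 CPM over the 6 pools. MRPL12 (identifier 114116833), a stalk protein that also binds mitochondrial RNA polymerase, had 45.4 and 44.0 CPM in Short, 52.6 and 57.7 in Long and 47.7 and 56.4 in THX pools (Long minus Short, log2 difference 0.30, SE 0.10, adjusted p = 0.342 by edgeR). MRPL11, its stalk neighbour, had 17.0 and 18.5 CPM in Short, 24.2 and 21.6 in Long and 18.3 and 23.2 in THX pools, so a THX pool lay among the Short pools. MRPL10, which anchors the stalk, had 41.5 and 42.3 CPM in Short, 46.4 and 45.6 in Long and 46.5 and 52.0 in THX pools, with no overlap of Short with either other group.

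Among the members with the most counts, MRPL49 had 114 and 118 CPM in Short, 130 and 125 in Long and 128 and 130 in THX pools (Long minus Short, log2 difference 0.13). MRPL37 had 109 and 116 CPM in Short, 112 and 118 in Long and 116 and 129 in THX pools, and Long overlapped both other groups (Long minus Short, log2 difference 0.03, and −0.02 with library totals in place of TMM factors or without Short pool 1). MRPS21 had 91.7 and 88.01 CPM in Short, 102 and 98.7 in Long and 83.5 and 95.9 in THX pools (0.16). MRPS2 had 56.8 and 70.2 CPM in Short, 83.8 and 76.6 in Long and 77.3 and 93.7 in THX pools (0.34), with wide gaps between the Short pools and between the THX pools.

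The 1 member below 0 was MRPL51 (identifier 101113486), of the large subunit, and it hardly differed. It had 51.9 and 49.0 CPM in Short, 47.1 and 48.8 in Long and 47.6 and 47.3 in THX pools (Long minus Short, log2 difference −0.07, SE 0.074, adjusted p = 0.663 by edgeR). Other members of known role, given next, had log2 differences of 0.10 to 0.24 in Long minus Short, beside a median of 0.19 for all 74. MRPL44, a large subunit protein with a ribonuclease fold, had 19.3 and 19.2 CPM in Short, 20.4 and 20.9 in Long and 20.8 and 21 in THX pools (0.10). MRPL45, which faces the inner membrane at the tunnel exit, had 34.7 and 35.8 CPM in Short, 40.3 and 36.5 in Long and 33.5 and 39.1 in THX pools (0.13), with THX overlapping both. MRPL3, near the catalytic centre, had 45.5 and 48.8 CPM in Short, 50.2 and 53.9 in Long and 51.0 and 54.7 in THX pools (0.14). MRPL1, of the mobile stalk on the exit side, had 19.0 and 18.3 CPM in Short, 20.6 and 21.5 in Long and 19.5 and 21.4 in THX pools (0.18). MRPS22, a mitochondria-specific small subunit protein, had 20.7 and 19.1 CPM in Short, 22.1 and 22.4 in Long and 20.8 and 21.9 in THX pools (0.16). MRPS12, of the decoding site, had 15.6 and 16.5 CPM in Short, 19.95 and 17.9 in Long and 17.9 in both THX pools (0.24). In all but MRPL45 both Short pools were below the other 4, and none of the 6 had an adjusted p under 0.366 by edgeR.

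THX against Short pools combines thyroidectomy with the change of day length, and it uses the Short pools again, so it is not independent of the comparison above. Of the 74 genes 64 had a log2 difference above 0 (49% of all tested genes), with a median of 0.16, a fold of 1.12, beside −0.008 over all tested genes. No member passed edgeR's test, where 165 genes did (0.916% of all tested genes). At an unadjusted p under 0.05, 18 members were higher (24.3%, where 10.8% of all tested genes were) and 1 lower (11.8% of all tested genes, 22.6% in both directions). The groups did not overlap in 42 members with THX above Short (56.8%, where 25.7% of all tested genes had that order) and in 4 with THX below (26.7% of all tested genes). The number higher at an unadjusted p under 0.05 rested on the pools used. It was 5 without Short pool 1 (6.76% of members, 5.17% of all genes) and 7 without THX pool 2 (9.46% and 7.56%), shares near those of all genes. It was 35 without THX pool 1 (47.3% and 14.9%) and 11 without each of Short pool 2, Long pool 1 and Long pool 2 (14.9% of members, with 8.91%, 7.84% and 8.21% of all genes). DESeq2 called 7 members (9.46%), near the 9.65% of all genes that it called, all higher in THX: MRPS6, MRPS2, MRPL52, MRPS14, MRPL40, MRPS34 and MRPS16. limma-voom called 0, where it called 0.977% of all genes. With no filter on low counts edgeR called 2 members (2.7%, where it called 3.82% of all genes). With library totals 50 members were above 0 and the median was 0.06, where the median of all tested genes moved to −0.11. Then 6 were higher at an unadjusted p under 0.05 by edgeR (8.11% of members, where 5.29% of all genes were). Without THX pool 1 edgeR called 5 members (MRPS6, MRPL52, MRPL20, MRPL40 and MRPS34, or 6.76%, where it called 5.88% of all genes) at a median of 0.24, and without THX pool 2 it called 0 at a median of 0.09.

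MRPL52 (identifier 101104665), a mitochondria-specific protein of the large subunit, was the member closest to the threshold. It had 19.0 and 21.1 CPM in Short, 24.0 and 25.7 in Long and 25.8 and 29.0 in THX pools. Its 3 groups did not overlap (THX minus Short, log2 difference 0.46, SE 0.11, adjusted p = 0.0931 by edgeR and 0.00776 by DESeq2). MRPS34, given above, had a log2 difference of 0.44 (SE 0.11, adjusted p = 0.101 by edgeR). Over the fits that each left out 1 pool this difference ran from 0.28 to 0.59. MRPS14 (identifier 101116494), of the head of the small subunit, had 15.9 and 17.6 CPM in Short, 20.1 and 20.7 in Long and 21.02 and 23.6 in THX pools, also without overlap of the groups (THX minus Short, log2 difference 0.42, SE 0.11, adjusted p = 0.106 by edgeR). MRPL40 (identifier 114108860), of the central protuberance, had 26.6 and 29.3 CPM in Short, 35.6 and 35.8 in Long and 33.7 and 44.4 in THX pools. Its difference leaned on THX pool 2 (log2 difference 0.48, SE 0.14, adjusted p = 0.122 by edgeR, with log2 differences of 0.28 without that pool and 0.67 without THX pool 1).

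**Figure D3:**
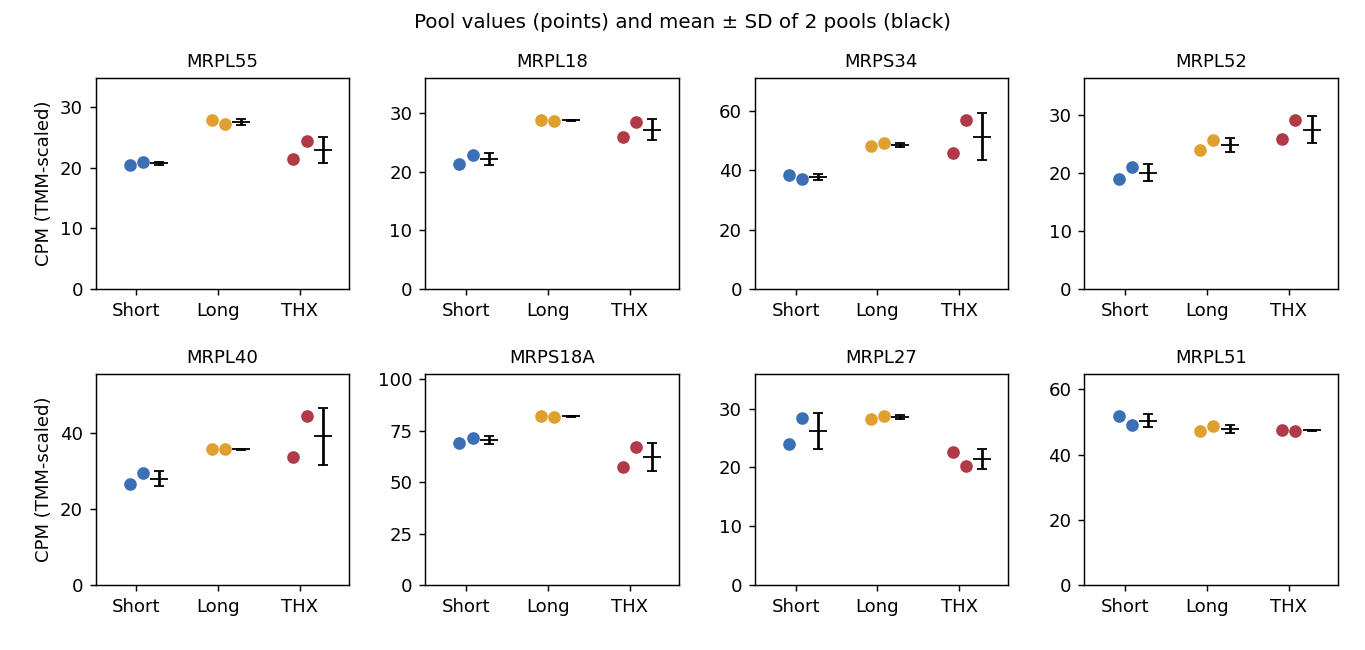
CPM (vertical axes, from 0) of 8 members in the 2 pools of each group (coloured points) with the mean ± SD of each group in black. MRPL55 is highest in Long pools, MRPL18, MRPS34, MRPL52 and MRPL40 are lowest in Short pools, MRPS18A and MRPL27 are lowest in THX pools, and MRPL51 differs little.

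THX against Long pools compares thyroidectomised with intact ewes at 1 day length. Here the genes did not differ as a body: 32 were above and 42 below 0 (50.3% of all tested genes were above and 49.7% below), with a median log2 difference of −0.04 beside 0.001 over all tested genes. No member passed edgeR's test, where 51 genes did (0.283% of all tested genes). At an unadjusted p under 0.05, 0 members were higher and 3 lower (4.05%, where of all tested genes 4.16% were higher and 4.92% lower, 9.08% together). The groups did not overlap in 13 members with THX below Long (17.6%, where 18.7% of all tested genes had that order) and in 6 with THX above (8.11%, where 18.5% had it). The median turned to 0.05 without THX pool 1, with 46 members above 0, and was −0.10 without THX pool 2, with 12 above 0. The direction of the whole set in this comparison thus rested on which THX pool was used.

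MRPS18A (identifier 101116355), a protein of the large subunit despite its symbol, was the member with the lowest p in THX against Long. It had 69.2 and 71.7 CPM in Short, 82.1 and 81.7 in Long and 57.3 and 67.03 in THX pools. Both THX pools stood below all 4 others (THX minus Long, log2 difference −0.40, SE 0.092, adjusted p = 0.222 by edgeR). DESeq2 called it alone among the members (adjusted p = 0.0164, where it called 2.5% of all genes), limma-voom did not call it (0.25% of all genes called), and over the alternatives the log2 difference ran from −0.51 to −0.29. Its gene overlaps RSPH9, a gene of motile cilia, in the sheep annotation, and RSPH9 had 45.9 and 46.1 CPM in Short, 53.8 and 54.3 in Long and 51.6 and 62.6 in THX pools. RSPH9 was therefore not lowest in THX pools. Whether reads passed between the genes was not tested. The related MRPS18B, a small subunit protein, had 11.7 and 11.2 CPM in Short, 13.5 and 13.1 in Long and 11.5 and 15.7 in THX pools. MRPS18C, also of the small subunit, had 6.14 and 6.99 CPM in Short, 8.21 and 6.39 in Long and 6.58 and 6.73 in THX pools. Neither had its lowest values in THX pools.

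MRPL27 (identifier 101106861), whose bacterial counterpart reaches into the catalytic centre, also stood lowest in THX pools. It had 24.0 and 28.4 CPM in Short, 28.3 and 28.8 in Long and 22.7 and 20.3 in THX pools. The THX pools lay below all others (THX minus Long, log2 difference −0.41, SE 0.11, adjusted p = 0.296 by edgeR, and −0.29 with SE 0.11 and adjusted p = 0.197 against Short). In THX pool 2, where 66 of the 74 genes were above their own mean, MRPL27 was at its lowest of the 6 pools. MRPS9, of the small subunit head, was the third member with both THX pools below all 4 others (11.3% of all tested genes had that order). It had 24.2 and 24.3 CPM in Short, 26.0 and 27.4 in Long and 23.9 and 23.7 in THX pools (THX minus Long, log2 difference −0.16, adjusted p = 0.648 by edgeR). MRPL55, given above, had a log2 difference of −0.26 (adjusted p = 0.484 by edgeR). MRPS30, a mitochondria-specific protein of the large subunit, had 17.1 and 15.7 CPM in Short, 17.5 and 18.1 in Long and 15.2 and 15.9 in THX pools, with THX below Long but overlapping Short.

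Members higher in THX than in Long pools differed by less. Both THX pools were above all 4 others in 6 members (MRPS36, MRPL10, MRPS16, MRPL52, MRPS14 and MRPS24), where 11% of all tested genes had that order. MRPS24, of the small subunit, had 16.7 and 15.3 CPM in Short, 18.4 and 17.8 in Long and 18.6 and 22.2 in THX pools (THX minus Long, log2 difference 0.17, SE 0.12, adjusted p = 0.797 by edgeR). MRPS16, a small subunit protein needed for its assembly, had 25.8 and 27.1 CPM in Short, 29.9 and 29.6 in Long and 31.3 and 33.3 in THX pools (0.12, adjusted p = 0.796 by edgeR). MRPS36 had 58.9 and 54.9 CPM in Short, 60.6 and 64.4 in Long and 68.4 and 66.0 in THX pools (0.10, adjusted p = 0.825 by edgeR). For MRPL52 the log2 difference was 0.14 (adjusted p = 0.817 by edgeR). None of the 4 had an unadjusted p under 0.05 in THX against Long.

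The 2 THX pools differed from each other more than the pools of the other groups did. THX pool 2 was above THX pool 1 in 66 of the 74 genes, where 50.8% of all tested genes had that order, with a median log2 gap of 0.16. In the Short group pool 2 was above pool 1 in 44 genes (median gap 0.04), and in the Long group in 37 (median gap 0.00). Neither trait was particular to the members. Over all tested genes the median gap regardless of direction was 0.196 in THX, 0.156 in Short and 0.107 in Long. THX pool 2 was also above THX pool 1 in 79 of 80 cytosolic ribosomal and 58 of 59 respiratory chain genes. The widest gaps of single members were those of MRPS18B (0.45 on the log2 scale, in THX), MRPL57 (0.41, in Short) and MRPL58 (0.40, in THX). MRPL58, a peptidyl-tRNA hydrolase built into the large subunit, had 51.0 and 55.5 CPM in Short, 66.6 and 61.2 in Long and 52.5 and 69.5 in THX pools, so its THX pools lay on either side of both Long pools and overlapped the Short pools. MRPL57 had 1.75 and 2.33 CPM in Short, 2.71 and 2.15 in Long and 2.17 and 2.37 in THX pools, on 117 to 157 counts per pool. MRPL21 and MRPL44 lay at the other extreme, with gaps of at most 0.04 in any group; both were picked after their values were seen.

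**Figure D4:**
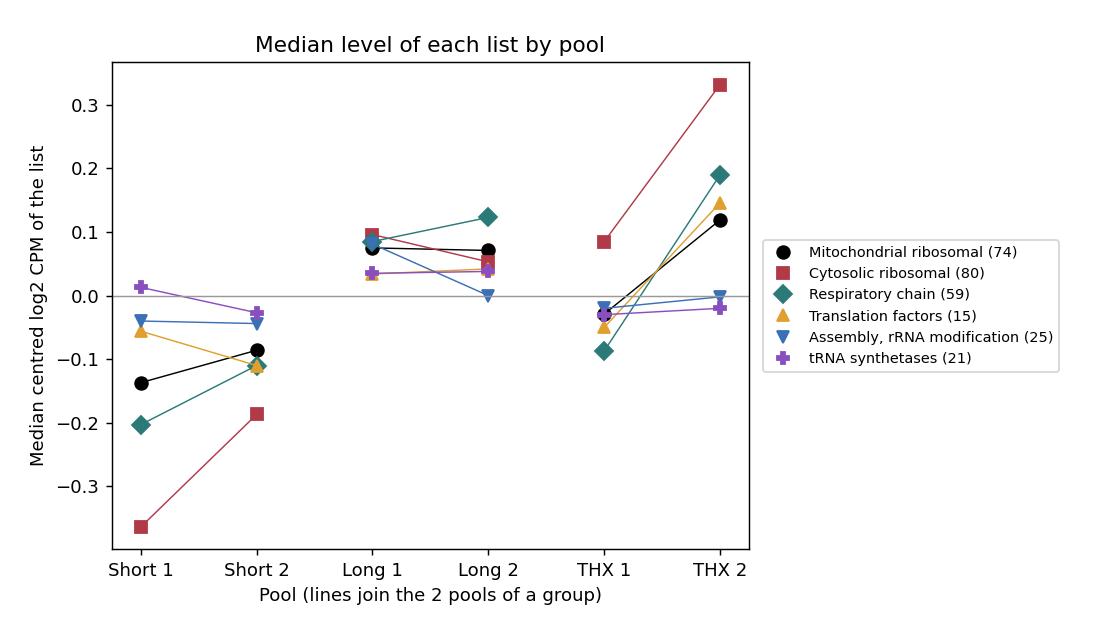
Median centred log2 CPM of 6 gene lists (vertical axis) in each pool, with lines joining the 2 pools of a group and the number of genes in brackets. Cytosolic ribosomal protein genes run from −0.364 in Short pool 1 to 0.332 in THX pool 2, respiratory chain genes from −0.203 to 0.190 and the 74 mitochondrial ribosomal genes from −0.137 to 0.119, while the assembly and synthetase lists stay within 0.1 of 0.

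Genes that work beside these proteins were compared from lists drawn up for the purpose. Of the 5 mitochondrial ribosome proteins that carry other symbols, 4 were above 0 in Long minus Short (median 0.20). AURKAIP1 had 32.5 and 37.1 CPM in Short, 44.3 and 42.6 in Long and 37.9 and 44.0 in THX pools (log2 difference 0.32, adjusted p = 0.342 by edgeR). GADD45GIP1 and CHCHD1 had log2 differences of 0.29 and 0.20. The small subunit protein PTCD3, which binds messenger RNA, went the other way, with 60.1 and 53.2 CPM in Short, 50.5 and 52.5 in Long and 50.2 and 52.6 in THX pools. DAP3, a GTP-binding protein of the small subunit, had 28.1 and 28.5 CPM in Short, 29.2 and 29.3 in Long and 29.8 in both THX pools.

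The list of 15 mitochondrial translation factors had 12 members above 0 in Long minus Short (median 0.11), where 49.7% of all tested genes were above 0. At an unadjusted p under 0.05 by edgeR, 1 of the 15 was higher and 0 lower. Of all tested genes 6.47% were higher and 7.33% lower, so the count of 1 is near that share. None of the list passed the test. TSFM, the exchange factor of mitochondrial elongation factor Tu, had 31.5 and 33.9 CPM in Short, 40.3 and 40.8 in Long and 35.2 and 39.9 in THX pools (log2 difference 0.31, adjusted p = 0.342 by edgeR). TUFM, the elongation factor itself, had 97.1 and 98.6 CPM in Short, 111 and 112 in Long and 103 and 118 in THX pools (0.19). OXA1L, which inserts the newly made proteins into the inner membrane next to MRPL45, had 90.4 and 96.0 CPM in Short, 103 and 102 in Long and 82.2 and 91.7 in THX pools (THX minus Long, log2 difference −0.24, adjusted p = 0.445 by edgeR). Of the 25 genes of ribosome assembly and ribosomal RNA modification 18 were above 0 in Long minus Short (median 0.07), and of the 21 mitochondrial aminoacyl-tRNA synthetases 11 (median 0.00). None of either list passed. The mitochondrial ribosomal proteins thus had a larger median than these 3 lists, a difference that was not tested.

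The lists of cytosolic ribosomal proteins and of the respiratory chain also had their lowest levels in the Short pools. The 80 cytosolic ribosomal protein genes had a median log2 difference of 0.35 in Long minus Short (79 above 0), 0.48 in THX minus Short (80 above 0) and 0.13 in THX minus Long (76 above 0). The 74 mitochondrial ones had 0.19, 0.16 and −0.04. The 59 nuclear-encoded genes of the respiratory chain had 0.27 (56 above 0), 0.21 (54 above 0) and −0.06 (12 above 0). Of all 3 lists only 1 gene passed edgeR's test, the cytosolic RPL36A in THX minus Short (145 and 157 CPM in Short pools, 227 and 260 in THX pools, log2 difference 0.69, adjusted p = 0.0322), and it missed the threshold without each pool but THX pool 1 (adjusted p from 0.0627 to 0.184). In THX minus Short 0.916% of all tested genes passed, so 1 of the 80 cytosolic genes is near that share. The 3 lists shared their lowest pool (Short pool 1) and their highest (THX pool 2), the pools at the ends of the first principal component. The part of these pools' other differences in this order was not tested.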

How the data were processed

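Polyadenylated RNA of 6 pools was sequenced from libraries of a stranded kit, per the labels' protocols. The submitters' processing notes name TopHat2 2.1.1, featureCounts 2.0.0, SAMtools 1.9, bcl2fastq 2.20, MultiQC 1.9 and FastQC 0.11.8. Deposited values are whole-number counts for each gene with no normalisation, so TMM scaling was done here. Genome build, annotation and strand setting were not given in the sources used here. For this reason no coordinates are printed, and overlapping genes may share reads. Of the 74 members, 70 were matched by identifier to the RefSeq table of ARS-UI_Ramb_v3.0, and 23 of these overlap another gene there.

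In R 4.3.3, genes were filtered by edgeR 4.0.16 (filterByExpr), scaled by TMM and fitted with 1 mean per group over 6 pools (3 residual and 3.96 prior degrees of freedom). Differences were tested two-sided by the quasi-likelihood F test with Benjamini-Hochberg adjustment over 18019 genes, at a threshold of 0.05. Lists are described by counts and medians, without a set test. DESeq2 1.42.0, run on the same filtered genes with its own independent filtering, and limma 3.58.1 (voom) were alternatives, beside other scalings, filters, pools and a pool number term. The procedure was run on simulated data with folds larger than the members' medians (1.14 in Long minus Short, 1.12 in THX minus Short). That run therefore cannot show whether differences of the members' size would be called. Within groups the 2 pools differed by 28.5, 16.2 and 71.5 times the variance of counting alone (Short, Long, THX). Figures used Python 3.11.15 and matplotlib 3.10.9.

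The members and lists were chosen with earlier results of these data known. The genes named were, in each comparison, the 4 members of lowest p above and the 4 below 0, then the 5 highest and 3 lowest by CPM, the 3 with the widest gap between pools, and 15 set by role. From other lists the genes of lowest p were taken, with further named ones chosen after their values were seen. Centred list levels use log2(CPM + 0.1).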

Additional observations from a re-analysis of the deposited data

How the results depend on the processing

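The median log2 difference of the members ran from 0.14 to 0.21 in Long minus Short over 17 alternatives, and the number of members called by edgeR, DESeq2 or limma-voom was 0 in all 15 fits. In THX minus Long, the calls numbered 1 under DESeq2 (MRPS18A) and 0 otherwise, and the median ran from −0.096 to 0.049 over the fits that each left out 1 pool. In THX minus Short, calls numbered 2 with no filter on low counts (MRPL52 and MRPS34, 2.7% of members, where 3.82% of all genes were called), 7 under DESeq2 (9.46% and 9.65%) and 0 to 5 over the fits that each left out 1 pool (6.76% and 5.88% at the highest, without THX pool 1). The median was 0.059 with library totals and ran from 0.087 to 0.235 over those fits. The cause of these changes was not tested. A fit that left 1 pool in a group assumed that it varied like the others. Among named genes, signs turned in Long minus Short for MRPL37 (−0.017 with library totals, and −0.015 to 0.082 over the fits that each left out 1 pool, lowest without Short pool 1), MRPL48 (−0.014 to 0.22) and MRPS18C (−0.039 to 0.329), both lowest without Long pool 1. AURKAIP1 in THX minus Long ran from −0.194 to 0.015, highest without THX pool 1.

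Deviations of same-numbered pools from their group means correlated across genes at −0.0586 (Short and Long), 0.211 (Short and THX) and 0.067 (Long and THX). As each group had only 2 pools, these values cannot show whether pool numbers pair the pools. With the pool number as a replicate block the members' medians were 0.191 (Long minus Short), 0.159 (THX minus Short) and −0.04 (THX minus Long), with 0 members called. Over all genes 0, 392 and 48 were called in these comparisons, beside 0, 165 and 51 without the block. Depth limits MRPL57 most, at 117 to 157 counts per pool, and every other member had at least 347.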

Other observations

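Genes that copy and transcribe mitochondrial DNA, and regulators of nuclear genes for mitochondria, had medians near or below 0 in Long minus Short, where that of the mitochondrial ribosomal proteins was 0.19. Of the 10 copying and transcription genes, 7 were above 0 in Long minus Short and 3 in THX minus Long, with medians of 0.01 and −0.04, and none passed the test of edgeR. TFAM, which packs and transcribes mitochondrial DNA, had 54.8 and 50.2 CPM in Short, 51.7 and 50.6 in Long and 54.0 and 47.3 in THX pools. POLRMT, the mitochondrial RNA polymerase that MRPL12 binds, had 26.8 and 27.5 CPM in Short, 24.9 and 22.5 in Long and 25.5 and 22.6 in THX pools. Both Short pools of POLRMT were above all others, opposite to MRPL12.

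Of the 10 regulators, 5 were above 0 in each comparison, with a median of −0.09 in Long minus Short. PPARGC1A, a coactivator that drives the formation of mitochondria, had 117 and 98.4 CPM in Short, 92.9 and 96.2 in Long and 96.0 and 93.5 in THX pools. Its relative PPARGC1B had 12.5 and 8.78 CPM in Short, 6.71 and 9.20 in Long and 4.93 and 4.78 in THX pools. Both THX pools were the lowest (THX minus Short, log2 difference −1.14, SE 0.23, adjusted p = 0.0726 by edgeR and 0.000238 by DESeq2). TFAM and PPARGC1A were picked after their values were seen.

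MRPS12 shares its locus with SARS2, a mitochondrial seryl-tRNA synthetase, in the sheep annotation. SARS2 had 19.6 and 21.2 CPM in Short, 25.3 and 23.2 in Long and 19.0 and 20.1 in THX pools (THX minus Long, log2 difference −0.31, adjusted p = 0.401 by edgeR). Both genes were highest in Long pool 1.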
